A study of Mus musculus with 55 samples.

Results

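Cnih3 knock-out (KO) males were compared with wild-type (WT) males, the only mice of the series without an estrous stage. The 12 males were taken from the labels alone and make up 7 KO and 5 WT of the 55 mice, each giving 1 library from its dorsal hippocampus. The other 43 mice were females, 21 KO and 22 WT, staged by vaginal cytology as metestrus, diestrus, proestrus or estrus. The KO females were 10.86 to 23.43 weeks old and the WT females 11.71 to 20.29 weeks. The paper states that ages were imperfectly balanced in the series. The KO line came from the Cnih3 tm1a(KOMP)Wtsi allele, made in C57BL/6N mice and then backcrossed to C57BL/6J, and its product lacks exon 4 in every cell rather than in 1 cell type. The KO males were 18.29 weeks (4 mice), 19.57, 20.29 and 23.71 weeks old, and the WT males 12, 18.29, 20.29 (2 mice) and 23.71 weeks. The WT male of 12 weeks, mouse 19_1, was also the only male whose parents were both B6 mice from outside the Cnih3 breeding, so its age and its parentage cannot be told apart.

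CNIH3 is a cornichon protein, a small membrane protein of the secretory route that binds AMPA-type glutamate receptors. AMPA receptors carry most fast excitatory transmission in the hippocampus, and cornichons help carry them from the endoplasmic reticulum to the surface and, once there, slow their closing. CNIH2 is the close relative of CNIH3 in hippocampal pyramidal cells, while CNIH1 and CNIH4 are broadly expressed. The dorsal hippocampus serves spatial learning, the task on which loss of Cnih3 has been studied.

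Cnih3 lies on the plus strand of chromosome 1, at 181352628 to 181460641 in GRCm38. Exon 4, the part lost in KO mice, is shown because its length is what breaks the reading frame. It is present in 4 of 4 annotated transcripts, sits at chr1:181449970-181450082 and holds 113 coding bases. The 198 coding bases before it in transcript Cnih3-201 fill 66 whole codons, so the last 2 bases of exon 4, in capitals, are left over. Without exon 4, exon 3 joins exon 5 in another frame, and the first stop, in capitals, comes after 7 shifted codons. The reading frame then holds 73 codons in place of 160. All 3 sequences were cut from the GENCODE transcript, 5′ to 3′.
Cnih3 exon 3, chr1:181409629-181409676: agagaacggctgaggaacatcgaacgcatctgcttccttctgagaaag
Cnih3 exon 4, chr1:181449970-181450082: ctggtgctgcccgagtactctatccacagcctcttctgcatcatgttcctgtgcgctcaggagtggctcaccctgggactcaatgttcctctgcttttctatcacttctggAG
Cnih3 exon 5 up to the shifted stop, chr1:181454595-181454618: gtatttccactgtccagcagaTAG

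Levels are given as CPM, a library's counts scaled to the same total in all libraries, and differences as log2 fold changes from a limma model of all 55 mice, in which low-quality libraries weigh less. Cnih3 read 27.0, 45.9, 34.9, 37.9, 33.0, 34.96 and 29.3 CPM in KO mice 1950, 2016, 2128, 2129, 2589, 2590 and 2591. WT mice 1949, 19_1, 2015, 2018 and 2052 read 29.6, 38.0, 38.2, 59.3 and 56.1 CPM. The 2 highest values were WT, but the genotypes overlapped. The count covers the whole gene, including the exons that KO mice keep, so it does not test for the loss of exon 4. The log2 fold change, KO minus WT, was -0.43 (SE 0.18, FDR 0.895), which missed the threshold of 0.05. Leaving out WT mouse 1949, which had the lowest WT level, took it to -0.71 with an FDR of 0.03. Transcript estimates did not help, since the rows used here hold 3 of the 4 transcripts and Cnih3-202 ran from 0 to 8.62 CPM over KO and from 0 to 2.18 CPM over WT males.

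Library totals were 40797170 to 63547098 counts in KO and 41339048 to 57073939 in WT males (two-sided exact permutation test of the means, p = 0.691). Mean age was 19.5 weeks in KO and 18.9 in WT males (exact permutation test, two-sided, p = 0.788). Of the 5 measures compared in this way, the number of genes detected had the smallest p, with 27348 to 28539 in KO and 27239 to 28061 in WT males (exact permutation p = 0.0354, adjusted over the 5 0.177). The mean quality weight was 1.24 in KO and 0.753 in WT males (exact permutation p = 0.168, adjusted 0.42), and the share of mitochondrially encoded mRNA gave p = 0.385 in the same exact test. The part of these measures in the gene results was not tested. All 66 pairs of male libraries correlated between 0.956 and 0.991 over log2 CPM of the genes tested, so none was a copy of another. The median was 0.980 over 21 KO pairs, 0.974 over 10 WT pairs and 0.979 over 35 pairs of KO with WT. The lowest values were 0.962, 0.965 and 0.956, though a minimum tends to fall as pairs are added. KO mouse 2590 and WT mouse 19_1 had the lowest quality weights of their groups, 0.28 and 0.366, where the highest male weight was 2.35. KO mouse 2590 also correlated least with the other 11 males (median 0.966).

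Of 16168 genes tested, 1 passed an FDR of 0.05 between KO and WT males, which is 0.00619% of them. It was Aim2, and it was lower in KO males. At an unadjusted p under 0.05 there were 383 genes higher in KO (2.37%) and 462 lower (2.86%). The usual difference was small, with a median absolute log2 fold change of 0.10 and a median 95% half-width of 0.29. For 11616 genes (71.8%) the 95% interval lay inside a 1.5-fold change either way. All 7 KO mice were above all 5 WT mice in 16 genes (0.0990%) and below them in 18 (0.111%). With 792 equally likely allocations of 12 mice to 7 and 5, a gene separates in a given direction with probability 0.00126. Neither observed share exceeded this. edgeR's quasi-likelihood test on the same genes also called only Aim2, whereas DESeq2 called 4 genes: Aim2, Atf4 and Slc7a3 lower and Ubxn11 higher in KO.

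**Figure D1:**
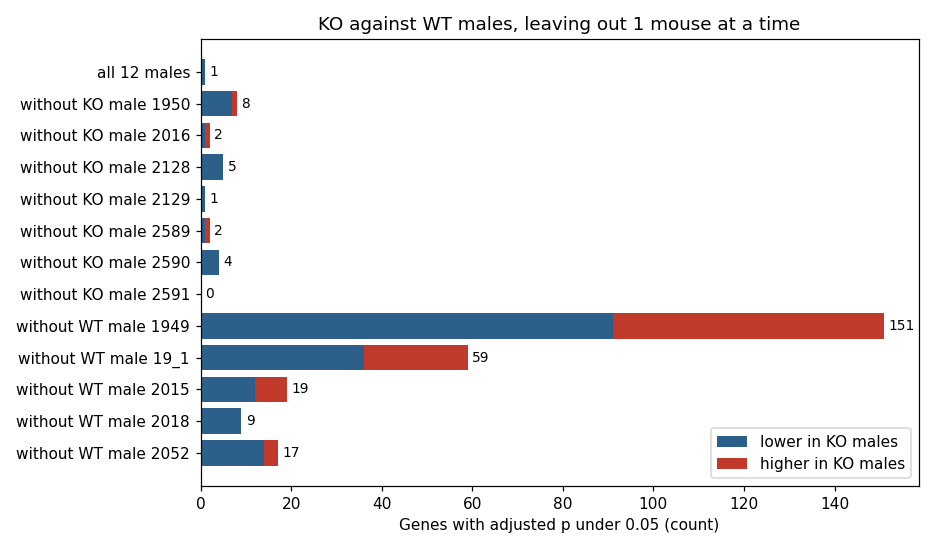
Number of genes with an adjusted p under 0.05 between KO and WT males (horizontal axis) with all 12 males and without each in turn (rows), split by direction. The bars run from 0 genes without KO mouse 2591 to 151 without WT mouse 1949, against 1 with all males.

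Single mice decided this count. Leaving out a WT mouse gave 151 genes without 1949, 59 without 19_1, 19 without 2015, 17 without 2052 and 9 without 2018. Leaving out a KO mouse gave 8 genes without 1950, 5 without 2128, 4 without 2590, 2 without 2016, 2 without 2589, 1 without 2129 and 0 without 2591. With both low-weight mice, 2590 and 19_1, left out, 50 genes passed, 20 higher and 30 lower in KO, an alternative added after the data were seen. WT mice 1949 and 19_1 stood apart from the other males in nuclear-retained RNA: the 10 listed transcripts summed to 930 and 1565 CPM in them, against 2320 to 3971 CPM in the other 10 males. The part of this RNA in the counts of genes was not tested.

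Aim2 encodes a sensor of cytosolic double-stranded DNA that assembles an inflammasome. It lies on chromosome 1, from 173350879 to 173466040. KO mice 1950, 2016, 2128, 2129, 2589, 2590 and 2591 read 2.06, 1.74, 1.23, 1.11, 1.68, 1.00 and 0.734 CPM, from 41 to 114 counts. WT mice 1949, 19_1, 2015, 2018 and 2052 read 2.80, 3.22, 4.41, 3.53 and 3.24 CPM, from 148 to 180 counts. Every KO mouse was below every WT mouse. Group means were 1.37 ± 0.47 CPM (SD, n = 7) in KO and 3.44 ± 0.60 CPM (SD, n = 5) in WT. The log2 fold change was -1.46 (SE 0.25, 95% interval -1.96 to -0.97, FDR 0.00381), a 2.76-fold lower level. Aim2 kept its sign under all 22 alternatives and passed the threshold in 18 of them. It missed the threshold without KO mouse 2591 (-1.16, FDR 0.108) and where only the 12 males were fitted (-1.45, FDR 0.191). With the 6 KO and 4 WT males at 3 shared ages, and age as a factor, the difference was -1.03 (FDR 0.639). In females, which share no sample with the males, Aim2 was also lower in KO, with log2 fold changes of -1.05 (metestrus), -1.32 (diestrus), -1.35 (proestrus) and -1.37 (estrus). Only proestrus (FDR 0.023) and estrus (FDR 0.000183) passed the threshold among these 4.

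**Figure D2:**
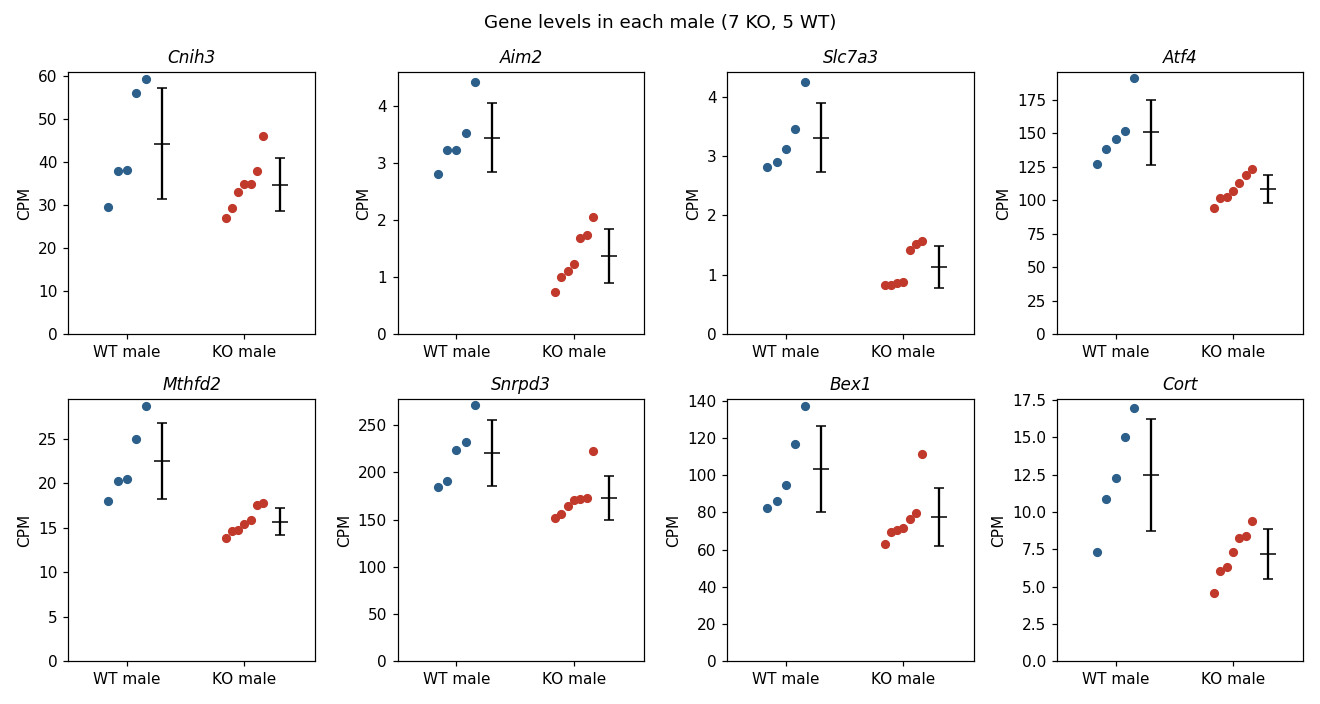
CPM (vertical axes, from 0) of 8 genes in each WT male (blue, n = 5) and KO male (red, n = 7), with the mean and SD in black. For Aim2, Slc7a3, Atf4 and Mthfd2 every KO mouse lies below every WT mouse, while Cnih3, Snrpd3, Bex1 and Cort overlap.

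Next by p among genes lower in KO were, in order, Snrpd3, Polr2k, Snrpd1, Atf4, Slc7a3, Bex1 and Zfas1, none of which passed the threshold. Slc7a3 encodes a transporter of cationic amino acids on the X chromosome. It read 0.82 to 1.57 CPM in KO males (median 0.88) and 2.82 to 4.24 CPM in WT males (median 3.12). The groups did not overlap, and the log2 fold change was -1.45 (SE 0.33, FDR 0.113), 2.73-fold. Atf4 encodes the transcription factor of the integrated stress response, which turns on amino acid synthesis and transport genes. Its levels were 119, 93.7, 113, 107, 102, 123 and 101.2 CPM in KO mice 1950, 2016, 2128, 2129, 2589, 2590 and 2591. WT mice 1949, 19_1, 2015, 2018 and 2052 had 151, 191, 138, 127 and 145 CPM. The groups were again separate, with KO mouse 2590 the highest KO and WT mouse 2018 the lowest WT. The difference was -0.43 (SE 0.10, FDR 0.113). Without WT mouse 1949, 2018 or 2052 or KO mouse 1950, Atf4 passed at FDRs of 0.0457, 0.0292, 0.041 and 0.0373, and Slc7a3 passed without WT mouse 1949, 19_1 or 2015 at 0.0107, 0.0166 and 0.0295.

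The list of Atf4 targets and amino acid stress genes held 15 tested genes, of which 0 passed the FDR and 6 were lower in KO at an unadjusted p under 0.05, with 0 higher, where 2.86% of all genes were lower and 2.37% higher. Its median log2 fold change was -0.09, against -0.005 over all genes tested. Mthfd2, a mitochondrial folate enzyme, read 13.8 to 17.8 CPM in KO and 18.0 to 28.7 CPM in WT males, with no overlap (log2 fold change -0.39, SE 0.13, FDR 0.626). Atf5, a related transcription factor, was at -0.51 (SE 0.17, FDR 0.681) and Slc7a11, the cystine transporter, at -0.51 (SE 0.23). Other members lay near 0, such as Asns, asparagine synthetase, at -0.07 (SE 0.12) and Phgdh, the first enzyme of serine synthesis, at -0.05 (SE 0.12). This list was written with results of the same mice known, so its direction is not independent evidence.

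Snrpd3 and Snrpd1 encode Sm proteins, the ring that spliceosomal small nuclear RNAs carry. Snrpd3 read 151 to 173 CPM in 6 KO males and 222 CPM in the seventh, mouse 2590, against 184 to 271 CPM in WT males. Its log2 fold change was -0.38 (SE 0.08, FDR 0.0515), and it passed without KO mouse 1950, 2128 or 2590 or WT mouse 1949, 2018 or 2052, at FDRs from 0.000666 to 0.0462. Snrpd1 was at -0.46 (SE 0.10, FDR 0.113), and KO mouse 2590 again had the highest KO level, 166 CPM. Of 12 snRNP core genes, a list added after the values were seen, 0 passed the FDR, 3 were lower at an unadjusted p under 0.05 (Snrpd3, Snrpd1 and Snrpc) and 0 higher, against the same 2.86% and 2.37% of all genes. Polr2k, a small subunit shared by the RNA polymerases, was at -0.53 (SE 0.11, FDR 0.113), and Zfas1, a host of small nucleolar RNAs, at -0.66 (SE 0.15, FDR 0.113).

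The Bex and Tceal genes, a cluster of small X-linked proteins whose Tceal members resemble elongation factor TFIIS, gave a like picture. Bex1 read 63.2 to 79.9 CPM in 6 KO males and 111 CPM in mouse 2590, while WT males ran from 82.4 to 137 CPM with mouse 19_1 the highest. The log2 fold change of Bex1 was -0.46 (SE 0.11, FDR 0.113), and Bex4 (-0.44) and Tceal8 (-0.33) had negative values too. Bex1, Bex4 and Tceal8 passed without WT mouse 2018 or 2052, and Bex1 also without 1949. Of 10 genes 0 passed the FDR, 5 were lower at an unadjusted p under 0.05 (2.86% of all genes) and 0 higher (2.37%), with a median of -0.18 against -0.005 over all genes. This list, too, was written with results of the same mice known, so its direction is not independent evidence. Summed over the list, KO males ranged from 1668 to 2580 CPM and WT males from 1689 to 2572 CPM, an almost full overlap. KO mouse 2590 had 2580 CPM and the next KO mouse 1893 CPM. KO mouse 2590 and WT mouse 19_1 had the lowest quality weights of the males. These weights are estimated from the same expression values, so they are no separate measure of library quality. The part of library quality in these genes was not tested.

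Genes higher in KO males also stopped short of the FDR threshold. Ubxn11, a UBX-domain protein, came first by p, with 12.9 to 22.7 CPM in KO (median 20.6) and 9.69 to 16.8 CPM in WT males (median 11.7). Its log2 fold change was 0.66 (SE 0.15, FDR 0.113), and the groups overlapped only through KO mice 2016 and 2589 and WT mouse 19_1. It passed without KO mouse 2016 or 2589 or WT mouse 1949, 19_1, 2015 or 2052, at FDRs from 0.0115 to 0.0493. Gm47033 was at 0.71 (SE 0.17, FDR 0.113). Sh2d3c, an adaptor protein of integrin and receptor signalling, read 14.3 to 25.5 CPM in KO and 11.0 to 14.4 CPM in WT males (0.76, SE 0.19, FDR 0.201). Plxnd1, a semaphorin receptor of axons and vessels, read 5.47 to 9.93 CPM in KO and 3.27 to 5.69 CPM in WT males (0.67, SE 0.18, FDR 0.229). Zfp612 (0.33), Mybbp1a (0.39) and Arhgap33 (0.39) had smaller differences.

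Avpr1b, the vasopressin receptor that marks CA2 pyramidal cells, had the largest of these differences and the lowest counts. KO males read 0.86 to 1.603 CPM, from 36 to 82 counts. WT mice 1949, 19_1, 2015, 2018 and 2052 had 46, 20, 0, 18 and 26 counts. The count of 0 allows up to 3 counts in that library. WT mouse 1949 at 0.87 CPM lay inside the KO range. The log2 fold change was 2.54 (SE 0.65, FDR 0.201), and leaving out WT mouse 2015 took it to 1.13. It passed without WT mouse 2052 (3.87, FDR 0.0122) or 1949 (2.01, FDR 0.0476). Among the 8 CA2 genes, the other 2 with the smallest p were Pcp4 at -0.24 (SE 0.14) and Amigo2 at -0.20 (SE 0.18).

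The genes through which CNIH3 acts gave no difference that passed the test. Gria1 to Gria4, the AMPA receptor subunits, read 537 to 754, 471 to 678, 93.0 to 125 and 10.5 to 15.0 CPM in KO males. In WT males they read 530 to 760, 414 to 687, 89.2 to 127 and 8.94 to 14.7 CPM, so every subunit overlapped over most of its range. The differences were 0.07, 0.03, 0.04 and 0.22 on the log2 scale, with SEs of 0.10, 0.14, 0.11 and 0.14. All 4 intervals lay within 1.5-fold, as did those of 71.8% of all genes, the widest reaching 0.51 for Gria4. The sign of the first 3 turned under 8, 9 and 7 of the 22 alternatives, so no direction is given for them. Cnih2 read 87.4 to 148 CPM in KO and 69.0 to 142 CPM in WT males (-0.15, SE 0.16). Cnih1 (-0.07, SE 0.08) and Cnih4 (-0.06, SE 0.07) differed by less than their errors. The intervals of these 3 cornichons also lay within 1.5-fold.

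Among AMPA receptor auxiliary and assembly proteins, 19 were tested and 0 passed the FDR. Of their intervals 17 (89.5%) lay within 1.5-fold, where 71.8% of all genes did. At an unadjusted p under 0.05, 1 was higher (2.37% of all genes) and 0 were lower (2.86%). The exception by unadjusted p was Cpt1c, a receptor-bound protein of the endoplasmic reticulum, at 0.24 (SE 0.11, FDR 0.944). Cacng7, an auxiliary subunit of the TARP family, was at -0.39 (SE 0.20, FDR 0.967), with WT mice 2018 and 2052 at 6.05 and 5.83 CPM and the other 10 males between 2.90 and 4.03. Of 20 anchoring and recycling genes 19 intervals lay within 1.5-fold, among them Dlg4, which encodes PSD-95, at -0.13 (SE 0.09). For the COPII coat, which buds vesicles from the endoplasmic reticulum, that was 12 of 12 genes. NMDA receptor subunits had 4 of 6 (66.7%, below the share of all genes) and kainate receptor subunits 6 of 7 (85.7%). In these 4 lists 0 genes passed an unadjusted p of 0.05. The opioid list had 4 of 5, with Oprl1, the nociceptin receptor, at 0.15 (SE 0.13) and Penk, which encodes proenkephalin, at 0.16 (SE 0.20). The steroid receptor list also had 4 of 6 (66.7%), with Esr1, an estrogen receptor, at 0.28 (SE 0.28).

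**Figure D3:**
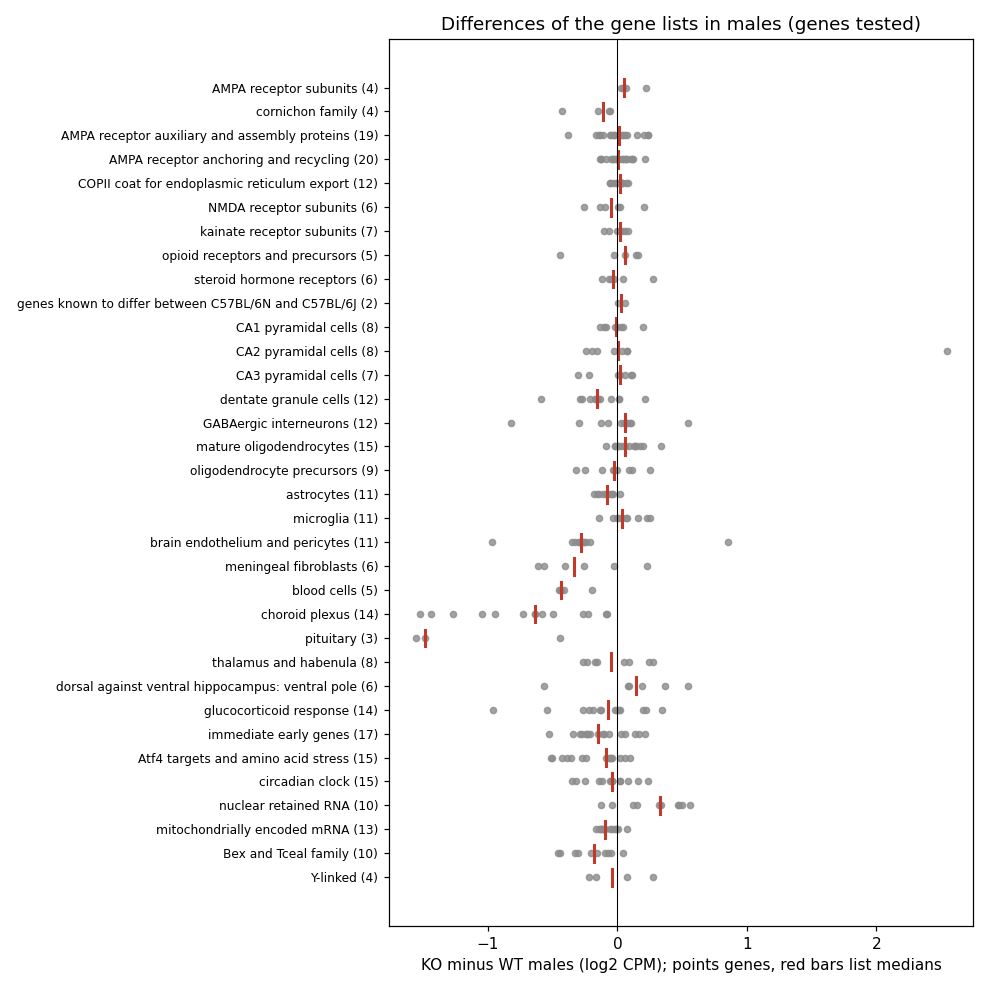
Log2 fold change, KO minus WT males (horizontal axis), of each tested gene (grey points) in the gene lists (rows, with the number tested), and the list median (red bar). The medians of the AMPA receptor, CA1, astrocyte and microglia lists lie within 0.1 of 0, while the choroid plexus (-0.64), blood (-0.43) and pituitary (-1.48) medians lie below.

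Markers of the labelled tissue were present, since 8 CA1 and 12 dentate granule cell genes were all tested and none was at 0 in any male. In bulk tissue, fewer cells of a type and less RNA per cell cannot be told apart. List medians were -0.01 for CA1 (8 of 8 intervals within 1.5-fold), 0.02 for CA3 (4 of 7) and -0.08 for astrocytes (11 of 11). They were 0.04 for microglia (11 of 11) and 0.06 for mature oligodendrocytes (13 of 15). Over all genes 71.8% of intervals lay within 1.5-fold. In the dentate list the median was -0.16, and 2 of 12 genes were lower at an unadjusted p under 0.05, against 2.86% of all genes. The 2 genes were C1ql2, a secreted synaptic protein of mossy fibres, at -0.59 (SE 0.23, FDR 0.799) and Stxbp6, a SNARE-binding protein, at -0.28 (SE 0.12). C1ql2 read 11.4 to 19.9 CPM in KO and 12.46 to 38.0 CPM in WT males, with WT mice 1949 and 19_1 inside the KO range, and passed without WT mouse 1949 (-0.81, FDR 0.0432).

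Of 12 interneuron genes, 1 was lower at an unadjusted p under 0.05, against 2.86% of all genes. That gene was Cort, which encodes the neuropeptide cortistatin. KO mice 1950, 2016, 2128, 2129, 2589, 2590 and 2591 read 7.30, 6.30, 8.23, 4.59, 6.08, 9.39 and 8.40 CPM. WT mice 1949, 19_1, 2015, 2018 and 2052 read 7.30, 12.2, 10.9, 16.9 and 15.0 CPM. Only WT mouse 1949 lay among the KO mice, and the log2 fold change of -0.82 (SE 0.22, FDR 0.246) became -1.13 (FDR 0.004) without it. It also passed without WT mouse 19_1 (-1.04, FDR 0.0166) or 2015 (-1.07, FDR 0.0238). Npy (-0.30, SE 0.19) and Calb2 (0.55, SE 0.30) did not pass even without adjustment.

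Tissues beside the hippocampus differed among mice of 1 genotype by more than between genotypes. Ttr, the transthyretin of choroid plexus epithelium, read 465, 15.35, 1958, 1199, 34.9, 9.00 and 16.9 CPM in KO mice 1950, 2016, 2128, 2129, 2589, 2590 and 2591. It read 984, 71.4, 652, 104 and 67.0 CPM in WT mice 1949, 19_1, 2015, 2018 and 2052. Summed over 14 choroid plexus genes, KO males ranged from 138 to 2527 CPM and WT males from 224 to 1547 CPM. All 14 fold changes were negative, yet 0 of 14 passed an unadjusted p of 0.05 and 0 intervals lay within 1.5-fold (71.8% of all genes). The mean of the summed levels had the other sign, at 817 CPM in KO and 649 CPM in WT males. At 0 counts were Aqp1 in 2 KO males and Tmem72 and Slc4a5 in 1 each. The blood list summed to 208 to 536 CPM in KO and 345 to 513 CPM in WT males, with 5 of 5 tested genes negative and 0 past an unadjusted p of 0.05. Pituitary genes summed to 4.72 to 29.5 CPM in KO and 7.37 to 47.6 CPM in WT males, and Lhb was at 0 in all 12. For 11 endothelial and pericyte genes the median was -0.28, and 1 interval lay within 1.5-fold (71.8% of all genes).

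**Figure D4:**
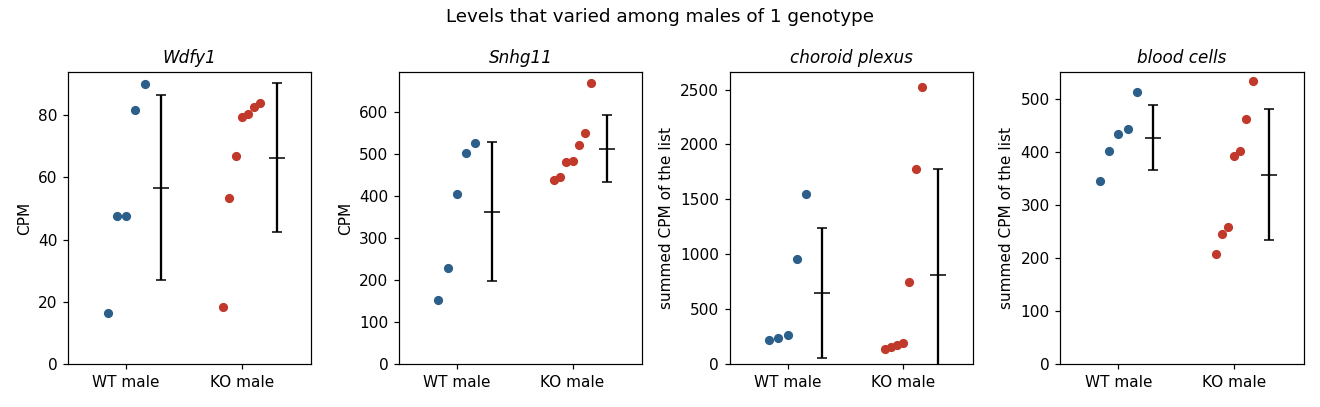
CPM of Wdfy1 and Snhg11, and summed CPM of the choroid plexus and blood lists (vertical axes, from 0), in each WT male (blue, n = 5) and KO male (red, n = 7), with the mean and SD in black (the lower SD bar of the KO choroid plexus sum is cut at 0). Wdfy1 spans 16.5 to 89.95 CPM in WT and 18.4 to 83.9 CPM in KO males.

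Genes near Cnih3 were compared because sequence beside a targeted allele stays with it through backcrossing. Within 10 Mb, 145 other genes were tested, of which 1 passed the FDR (Aim2, lower), against 0.00619% of all genes. For Aim2, the loss of Cnih3 and the sequence linked to it cannot be told apart in these mice. At an unadjusted p under 0.05, 3 of the 145 were higher in KO and 6 lower, against 2.37% and 2.86% of all genes. The median log2 fold change was -0.02 against -0.005. After Aim2 the smallest p values belonged to Gm20305 (-0.93, SE 0.28, FDR 0.524), at 180854282 to 180854458, and Lyplal1, a lysophospholipase-like protein (0.38, SE 0.14, FDR 0.741), 4627 kb beyond the end of Cnih3. Coq8a, a kinase-like protein of coenzyme Q synthesis (0.32, SE 0.12), Hnrnpu, a nuclear matrix RNA-binding protein (-0.26, SE 0.11), and Alyref2 (-0.29, SE 0.12) followed. Without WT mouse 1949, Lyplal1, Coq8a and Hnrnpu passed, at FDRs of 0.0432, 0.0476 and 0.0457. In that fit 151 of all 16152 genes tested passed, and each of these 3 passed in only 1 of the 22 alternatives. For Lyplal1, KO males ran from 13.7 to 18.7 CPM and WT males from 8.77 to 15.9 CPM.

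Wdfy1, an endosomal protein also on chromosome 1 (79702262 to 79776143), is among the genes known to differ between C57BL/6N and C57BL/6J. It read 18.4 CPM in KO mouse 1950 and 16.5 CPM in WT mouse 19_1. Levels of 47.6, 47.6 and 53.3 CPM came from WT mice 2018 and 2052 and KO mouse 2016, and the other 7 males, 5 KO and 2 WT, read 66.7 to 89.95 CPM. Low, middle and high values occurred in both genotypes, and the difference was 0.06 (SE 0.46, FDR 0.994). In females it was 1.12 (SE 0.23, FDR 0.00224), and the part of parentage in this value was not tested. The test of male against female difference gave -1.07 (SE 0.51, FDR 1.00). Cyfip2, which carries a coding change between these substrains, did not differ in level (0.00, SE 0.07). Nnt, which is partly deleted in C57BL/6J, had 0 counts at 1 of its 2 gene entries in all 12 males and up to 57 at the other. Nnt, Entpd4 (up to 43 counts in a male) and Crb1 (up to 16) were the substrain genes not tested.

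KO and WT females, averaged over the 4 stages, served as a second set of mice under the same contrast. The paper states that its WT mice came partly from B6 parents and partly from Cnih3 heterozygote parents. It pooled them because a principal component analysis showed no clear axis of parentage. Genotype and parentage were thus partly confounded, and the part of parentage in the female values was not tested. The female contrast gave 318 genes, 140 higher in KO (0.866% of those tested) and 178 lower (1.10%). This number fell to 78 with edgeR, 83 without quality weights and 116 with DESeq2, and the shares that follow rest on the 318. Of these, 282 (88.7%) had the same sign in males, against 60.5% of all genes. At an unadjusted p under 0.05 in males, 118 of the 318 (37.1%) had the same sign and 2 the opposite, against 666 (4.12%) and 179 of all 16168 genes. The 178 genes lower in KO females had a median log2 fold change of -0.21 in males and -0.24 in females, and the 140 higher genes 0.14 and 0.22. Over all genes the fold changes of males and females had a Pearson r of 0.217 and a Spearman rho of 0.269, across genes that are not independent replicates. The model shared its estimate of spread between both sexes, but no mouse.

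The 8 female genes with the smallest p were Aim2, Atf4, Bex1, Cort, Snrpc, Bex2, Tceal8 and Mthfd2, all lower in KO females. All 8 were negative in males too, and all had an unadjusted p under 0.05 there. The female and male values stood side by side at -0.46 and -0.43 for Atf4, -0.50 and -0.46 for Bex1, -1.03 and -0.82 for Cort, -0.46 and -0.39 for Snrpc, -0.37 and -0.30 for Bex2, and -0.47 and -0.39 for Mthfd2. Slc7a3 was at -1.05 (FDR 0.000116) in females.

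**Figure D5:**
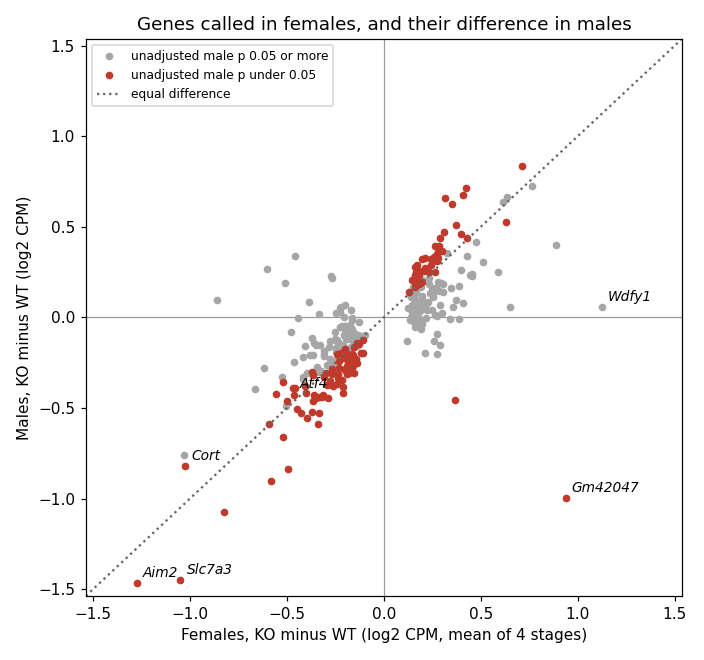
Log2 fold change, KO minus WT, in females (horizontal axis) and males (vertical axis) of the 318 genes that passed the threshold in females; red marks an unadjusted male p under 0.05, and the dotted line equal values. Of the points, 282 have the same sign in both sexes; Gm42047 is among the exceptions.

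The difference between the male and female contrasts, tested gene by gene, passed the FDR for 0 genes in limma, and for 0 in edgeR and 0 in DESeq2, while 490 (3.03%) had an unadjusted p under 0.05 in limma. Without WT mouse 1949 it was 3 genes and without WT mouse 19_1 it was 1. The smallest p belonged to Sall3, a zinc finger transcription factor, at -0.46 in males and 0.37 in females (difference -0.82, SE 0.19, FDR 0.747). Zfp54 stood at 1.23 in males and -0.43 in females, Gm42047 at -0.99 and 0.94, and Dok6, an adaptor of receptor tyrosine kinases, at -0.27 and 0.10. Sall3 read 2.81 to 4.51 CPM in KO and 4.46 to 5.43 CPM in WT males, with 1 KO mouse above the lowest WT mouse.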

How the data were processed

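Dorsal hippocampal RNA was sequenced from 12 males, 7 KO and 5 WT, among 55 mice. The authors aligned reads to GRCm38 with STAR 2.7.9a, counted them per Ensembl gene with featureCounts 2.0.3 and deposited the raw counts. The transcript table holds the estimated counts the authors made with Salmon 1.5.2 and was used for Cnih3 only. CPM tables were not used, and 1 count column with no mouse in the list was left out. Counts map only to whole genes, so reads from a kept exon and a lost one cannot be told apart.

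Genes were kept where 10 or more libraries exceeded 1 CPM, without 5 ribosomal RNA genes, as in the study's methods, giving 16168 of 55487. They were scaled by TMM (edgeR 4.0.16) and fitted with voomWithQualityWeights in limma 3.58.1 (R 4.3.3), with 1 mean per group over all mice, and p-values were adjusted by Benjamini and Hochberg within each comparison. Each mouse is 1 library. Age and 4 library measures were compared by exact permutation over 792 allocations, which allow a p no smaller than 0.00126. The steps were tested on simulated data. DESeq2 1.42.0 was an alternative.

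Named genes were Cnih3, the 8 smallest p in each direction, all AMPA receptor, cornichon and substrain genes, up to 3 genes of each other list, 6 flanking genes, the 8 smallest p in females and 4 in the interaction. Exceptions, chosen after their values were seen, were Slc7a11, Asns and Phgdh of the Atf4 list. Members and lists were chosen with earlier results of these data known. Positions and exons are from GENCODE M21. The values of 1 gene chosen by this rule are not reported here.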

Additional observations from a re-analysis of the deposited data

Results flagged for a closer look

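In 206 sets of values (65 named genes, the list sums and 3 library measures, each in KO and in WT males), 17 held a mouse at one end that lay far from the rest of its group by Dixon's criterion (CPM on the log2 scale). Chance flags about 1 set in 20. KO mouse 2590 accounts for 10 of them. It was highest among KO males for Bex1 (111 CPM, next 79.9), Bex2 (849 CPM, next 615), Bex4 (46.6 CPM, next 33.2), Tceal8 (155 CPM, next 121), Snrpd3 (222 CPM, next 173) and Cnih1 (129 CPM, next 106). It was also highest for the summed Bex and Tceal family (2580 CPM) and the summed snRNP core proteins (1581 CPM), and lowest for Cyfip2 (482 CPM, next 601) and Mybbp1a (25.1 CPM, next 33.8). This library had the lowest quality weight of the males, a weight estimated from the same expression values.

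WT mouse 1949 was lowest among WT males for Cnih2 (69.0 CPM, next 116) and Dlg4 (93.8 CPM, next 114). Avpr1b had a high KO value in mouse 2129 (1.603 CPM) and a WT value of 0 CPM in mouse 2015. Npas4 was lowest among WT males in mouse 2015 (2.77 CPM, next 7.77). Wdfy1 was lowest in KO mouse 1950 (18.4 CPM, next 53.3), and the meningeal fibroblast genes summed to 70.9 CPM in KO mouse 2129 against 23.7 CPM in the next.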

How the results depend on the processing

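No paired analysis was possible because each mouse number occurred once and the labels do not say which mice were littermates, but males at the 3 shared ages were also fitted with age as a factor. With all 12 males in the fit, 1 gene passed in males. This count was 4 with DESeq2, 10 without a filter on low counts, 0 with only the 12 males under either filter and 0 at shared ages, and leaving out single males moved it from 0 to 151; 50 passed without both low-weight mice. It stayed at 1 with edgeR, without quality weights, with upper quartile factors and with age as a covariate. In females 318 genes became 78 with edgeR, 116 with DESeq2, 83 without quality weights and 168 without the filter. The interaction rose from 0 to 4 without the filter and to 0 to 3 without single males. Cnih3 moved between -0.71 and -0.21 without single males and passed without WT mouse 1949 only. Of 124 named genes, 94 kept their sign under all alternatives, and of 2725 values, 96 had the other sign; none of these 96 belonged to a gene with an unadjusted p under 0.05. The cause of these shifts was not tested. Low counts limit Aim2, Slc7a3 and Avpr1b. For a gene at the median half-width of 0.29, differences under about that size could not be resolved. Genes with a small SE, such as Snrpd3 (0.075), had narrower intervals.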

Other observations

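Lists of state-dependent genes showed no gene past the FDR in males. Immediate early genes, which neurons turn on within minutes of activity, had 12 of 17 genes negative, a median log2 fold change of -0.15 and 0 at an unadjusted p under 0.05. Their summed levels overlapped, at 583 to 1132 CPM in KO and 564 to 1058 CPM in WT males. Egr1 was at -0.23 (SE 0.15) and Npas4 at -0.52 (SE 0.41). Of 15 clock genes 1 was lower at an unadjusted p under 0.05, against 2.86% of all genes, and the median was -0.04. The 1 lower gene was Cry1, a repressor of the clock (-0.35, SE 0.15, FDR 0.907). The 14 glucocorticoid response genes had a median of -0.07 and 0 at an unadjusted p under 0.05, with Fkbp5, a brake on the glucocorticoid receptor, at -0.19 (SE 0.10).

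Nuclear-retained RNA had a median of 0.33 over 10 genes, 8 of them positive, and 0 at an unadjusted p under 0.05. Snhg11, one of them, read 153 and 229 CPM in WT mice 1949 and 19_1 and 405 to 669 CPM in the other 10 males. Mitochondrially encoded mRNA, 13 genes, had a median of -0.10, and 1.5% to 2.84% of counts came from it in KO and 1.47% to 2.36% in WT males. The mean of its summed levels had the other sign, at 22470 CPM in KO and 20330 CPM in WT males. Of 4 Y-linked genes 1 was higher in KO males at an unadjusted p under 0.05, against 2.37% of all genes. The 1 higher gene was Eif2s3y at 0.27 (SE 0.11, FDR 0.847). Thalamus and habenula genes, a check of the dissection, summed to 108 to 157 CPM in KO and 113 to 139 CPM in WT males. Ventral hippocampal genes, a second such check, summed to 198 to 344 CPM and 198 to 325 CPM. Meningeal fibroblast genes had a median of -0.34 over 6 genes and oligodendrocyte precursor genes -0.03 over 9.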
